A study of Mus musculus with 25 samples.

Results

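The potassium channel genes of libraries labelled as mouse cortical motor neurons were examined as every gene of the deposited expression table whose symbol begins with Kcn, the root shared by the pore-forming subunits, their auxiliary subunits and a few transcripts named after them. This rule gave 45 of 9931 genes with a symbol. Of the 45, 42 code for channel proteins and 3 are non-coding RNAs (Kcnmb4os1, Kcnmb4os2 and Kcnq1ot1).

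The cells came from the sensorimotor cortex of C57BL/6 mice that carried floxed Rest alleles and a tdTomato reporter switched on by Cre, in the controls as well as in the knockouts. Control mice (WT) were given AAV-Syn-GFP and knockout mice (REST cKO) AAV-Syn-Cre, so that deletion was driven by the synapsin promoter and reached only cells that took up the virus. Mice of each genotype had a sham operation or a complete crush of the thoracic spinal cord (SCI) and were studied 1, 3 or 7 days later. The 25 libraries comprised WT sham (n = 4), 3 groups of WT after SCI (n = 3 for each of the days), the REST cKO sham group (n = 3) and REST cKO after SCI (n = 2 at day 1, n = 4 at day 3, n = 3 at day 7). A figure legend of the study counts 3 mice in each condition, whereas the groups here hold 2 to 4 libraries. The labels do not tie each library to a mouse, so the p-values measure the spread between libraries. Sex was uneven, with 3 females and 0 males in WT at day 7, and 3 males and 0 females in both REST cKO sham and REST cKO at day 7. Genotype and sex therefore cannot be told apart at day 7 from those libraries alone.

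Potassium channels let potassium leave the neuron, which sets its resting potential, ends each action potential and limits repetitive firing. Pore-forming subunits assemble into channels opened by voltage, by intracellular calcium or sodium, or by G proteins, or that leak at rest, and auxiliary subunits change their gating and their delivery to the membrane. REST is a repressor that binds the RE1 element of many neuronal genes, ion channel genes among them.

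Values are given as log2 normalized counts, and a difference between groups as a difference on that log2 scale, from a linear model that holds 8 group means and, as covariates, 2 sequencing components. Read totals per library are not in the table. The study states only an average read depth, so the depth behind each value is not known and errors come from the replicates alone. Values reached down to -4.82, and the share of all values under -2 ran from 2.77% to 29.5% between libraries. WT day 3 replicate 5 stood apart at 29.5%, followed by WT day 7 replicate 7 at 16.98%. As a check of the sorted cells, all 9 neuronal markers (Rbfox3, Snap25 and others) were in the table, with a mean per library of 0.25 to 2.53. The 7 microglial markers (Cx3cr1, P2ry12 and others) had a mean of 2.63 to 3.48 and were never under -2, and the astrocyte list, without Aqp4, Gfap and Aldh1l1, which were not among the genes analysed here, had 0.15 to 3.13. The 4 endothelial markers had a mean of 1.26 to 2.63 and the 3 pericyte markers of 0.95 to 3.17, and both were never under -2. The microglial mean was above the neuronal mean in 25 of 25 libraries. Markers of other cell types were thus high in libraries labelled as neurons. In such bulk samples fewer cells of a type and less RNA per cell cannot be told apart. Rest itself ranged from 0.56 to 2.88 in WT at day 3 and from 0.26 to 2.74 in WT at day 7, and from -1.61 to -0.04 and from -1.21 to -0.33 in the REST cKO libraries of the same days. In sham the genotypes overlapped in Rest (-1.55 to -0.26 in WT and -2.65 to -0.52 in REST cKO), as they did at day 1 (-1.35 to 0.71 and -0.43 to -0.40), so at these times its level did not separate the labels. Rest is 1 of 140 genes whose values still correlate with a sequencing component, and 0 of the 45 channel genes are among them.

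Most channel genes were weakly detected. Of the 1125 values of the 45 genes, 14.7% lay under -2, against 8.57% of the values of all genes. In each of the 25 libraries the median of the channel genes was below the median of all genes, by 0.16 to 2.65 on the log2 scale. There were 10 genes that were never under -2 (Kcna2, Kcnd3, Kcnh1, Kcnj2, Kcnj8, Kcnk6, Kcnk13, Kcnma1, Kcnq1ot1 and Kcnq3), 17 that were under it in 1 to 4 libraries and 18 in 5 or more. The spread within groups was correspondingly wide, with a median pooled SD of 1.27 for the channel genes and 1.12 for all genes. It was lowest for Kcnq1ot1 at 0.16 and highest for Kcnt1 at 1.95.

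**Figure D1:**
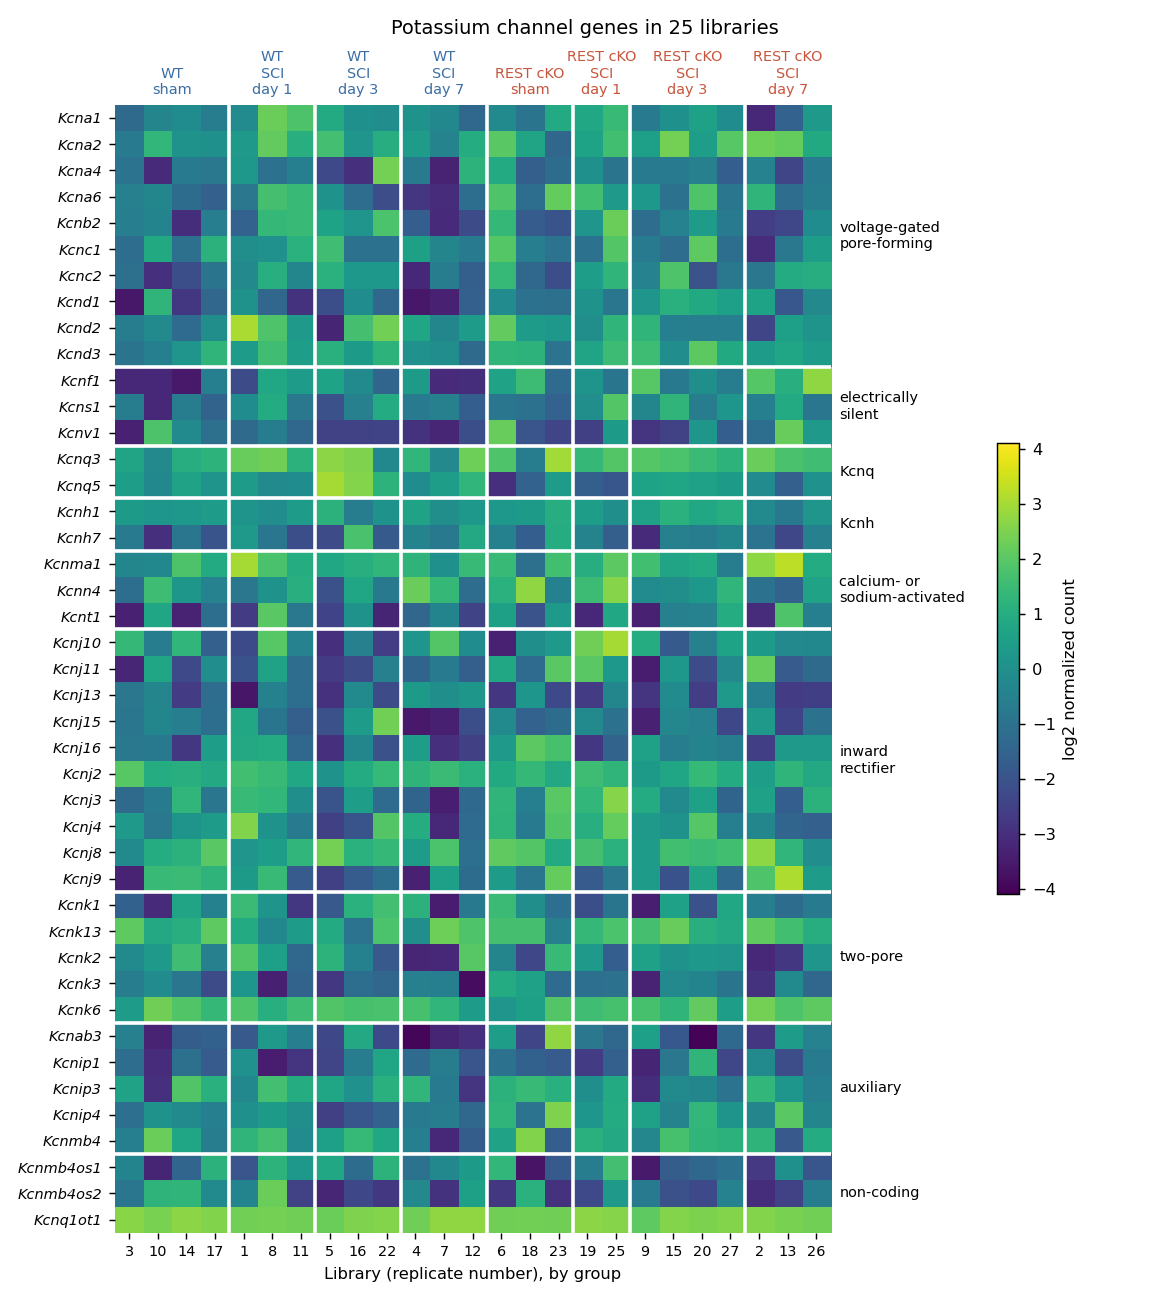
Log2 normalized count of 43 of the 45 potassium channel genes (rows, by family) in the 25 libraries (columns, by group, numbered by replicate), with low values dark and high values yellow. Kcnq1ot1 is high in every library, and the column of WT day 3 replicate 5 holds the most genes under -2.

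The low values were unevenly spread over the libraries. The number of channel genes under -2 was 0 in REST cKO day 1 replicate 25, had a median of 6 over the 25 libraries, and reached 15 in WT day 7 replicate 7 and 21 in WT day 3 replicate 5. By group, it was 9 to 15 in WT at day 7 and 1 to 11 in REST cKO at day 7. Over all libraries 17.8% of the channel gene values were under -2 in WT and 11.3% in REST cKO, and for all genes these shares were 10.4% and 6.58%. The genotypes were unevenly spread over the labelled batches, with 7 WT and 3 REST cKO libraries in batch 1, 5 and 5 in batch 2, and 1 and 4 in batch 3. Within batch 2 the share of channel gene values under -2 was 12.4% in both genotypes, in batch 1 it was 21.6% in WT and 19.3% in REST cKO, and in batch 3 it was 17.8% in WT (1 library) and 3.89% in REST cKO. The part of low values in the differences that follow was measured only through the alternative fits named there.

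**Figure D2:**
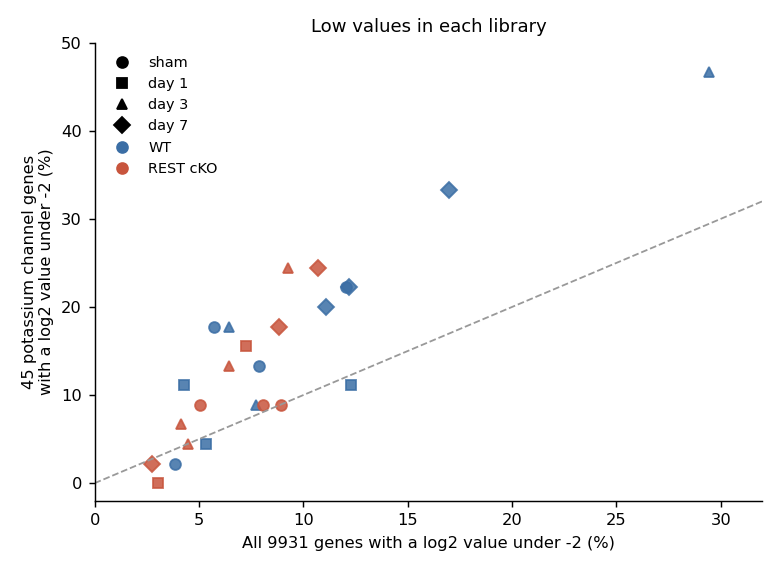
Percentage of the 45 potassium channel genes with a log2 value under -2 (vertical axis) against the same percentage over all 9931 genes (horizontal axis), 1 point per library, blue for WT and red for REST cKO, with equality dashed. Most libraries lie above the dashed line, and the WT libraries of day 3 with 21 and of day 7 with 15 such channel genes lie farthest to the right.

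The comparison of REST cKO with WT asked whether the channel genes differ between mice with and without the deletion. At day 7 the channel genes with the largest differences were higher in REST cKO, among them Kcnf1, Kcnv1 and Kcnj9, but 0 of 45 passed an adjusted p of 0.1 (limma, Benjamini-Hochberg over 9931 genes), as did 0% of all genes. The lowest adjusted p was 0.238, for Kcnf1. The study's own fit called many genes between the genotypes at this day, and fewer at earlier times. The model used here did not recover those calls at this day. The study's fit used voom weights, which could not be formed here, and the reason for the gap was not tested. The lack of genes past the adjusted threshold therefore describes this model and is not a property of the libraries alone. At an unadjusted p under 0.05, 8 of 45 (17.8%) differed, against 9.95% of all genes, and all 8 were higher in REST cKO, a direction in which 7.73% of all genes passed. The median difference was 0.81 for the channel genes and 0.23 for all genes, which is the shift of the whole table at that day. Of the neuronal markers 8 of 9 were positive in the same comparison (median 0.66), as were 5 of 5 astrocyte markers (median 0.66), and their part was not tested. With a term for sex the medians of the channel genes and of all genes were 0.27 and 0.19, with the share of low values per library as a covariate 0.40 and 0.16, and after quantile normalization 0.23 and -0.03. The standard errors at day 7 ran from 0.24 for Kcnq1ot1 to 1.55 for Kcnt1.

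Over the mean of the 4 times (sham and 3 days) again 0 of 45 passed the adjusted threshold (limma), against 0.0101% of all genes. At an unadjusted p under 0.05, 8 genes differed (17.8%), against 8.53% of all genes. Of these, 7 were higher in REST cKO (6.60% of all genes) and Kcnq5 was lower. The median difference was 0.46 for the channel genes and 0.14 for all genes. It was 0.24 against 0.11 with a term for sex, 0.25 against 0.08 with the share of low values as a covariate, and 0.18 against -0.00416 after quantile normalization. All 9 neuronal markers (median 0.44) and all 5 astrocyte markers (median 0.79) were positive, and their part was not tested. The other single times gave 0 of 45 at the adjusted threshold, where the share of all genes was 0.0302% in sham and 0% at day 1 and day 3. Unadjusted, 2 genes differed in sham (6.91% of all genes), 0 at day 1 (3.81%) and 1 at day 3 (6.37%), all of them at or under the share in the whole table. When each library was left out in turn these counts ran from 2 to 5 in sham, 0 to 2 at day 1 and 1 to 5 at day 3. The median difference of the channel genes was 0.79 in sham (all genes 0.04), 0.14 at day 1 (0.19) and 0.10 at day 3 (0.05). In sham it was 0.49 with a term for sex and 0.46 among genes with a mean of at least 0, and at day 1 it was -0.23 after quantile normalization.

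**Figure D3:**
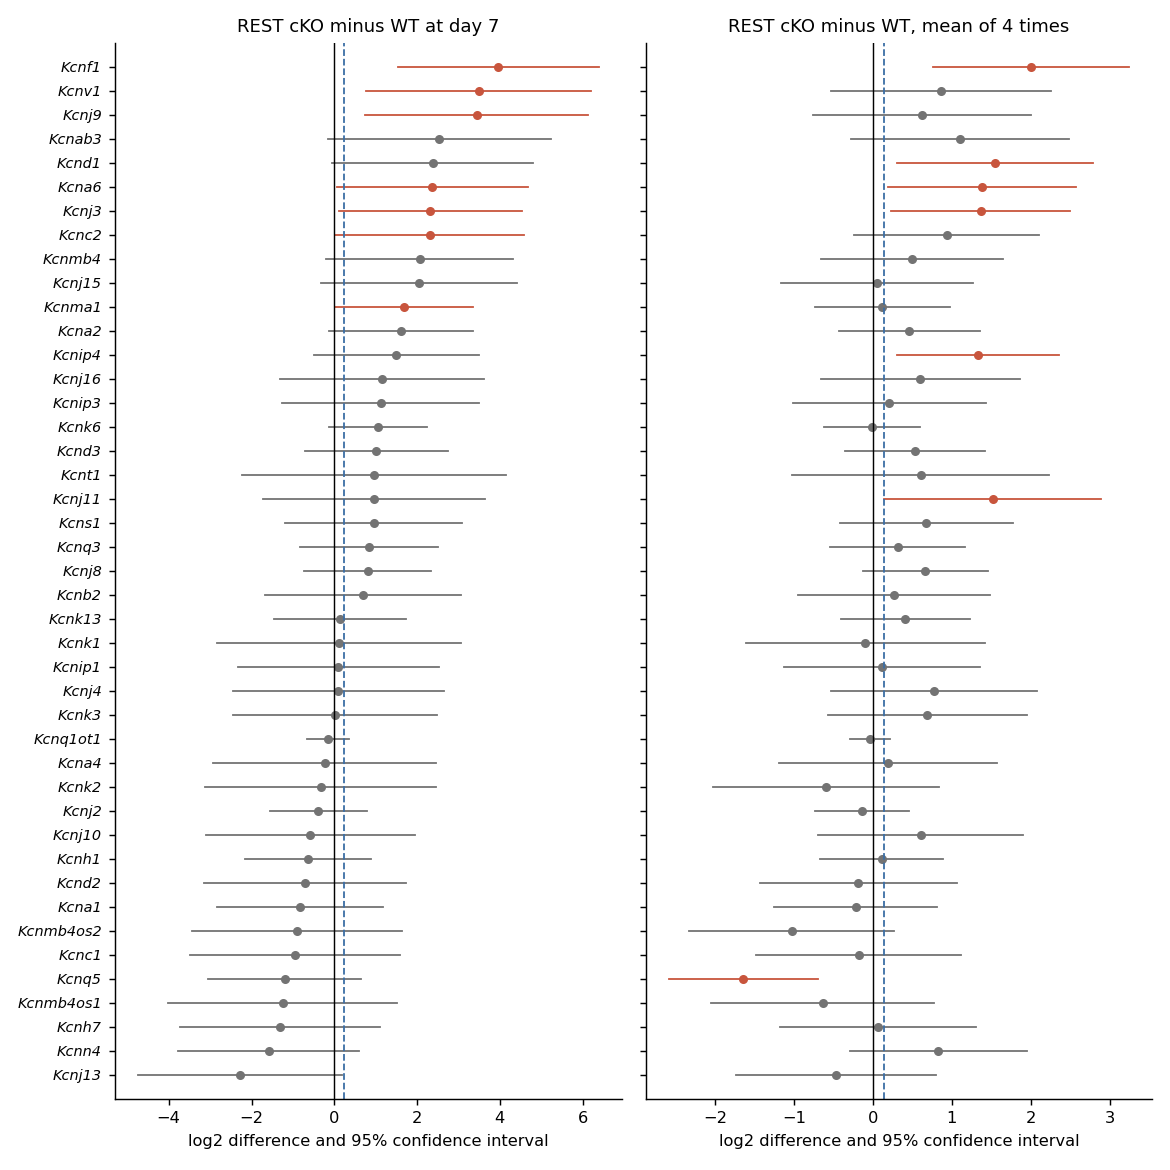
Log2 difference of REST cKO minus WT (horizontal axis) with its 95% confidence interval for 43 of the 45 genes, at day 7 (left) and as the mean of 4 times (right), in red where the unadjusted p is under 0.05, with 0 as a solid line and the median of all genes as a dashed line. Kcnf1 has the largest difference in both panels, 3.96 and 2.01, and Kcnq5 is lower by 1.64 in the right panel.

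Counting genes whose groups did not overlap, REST cKO and WT were separated for 8 channel genes at day 7 (17.8%, against 12.4% of all genes). Kcnab3, Kcnd3, Kcnf1, Kcnip4, Kcnk6 and Kcnv1 were among those higher in all REST cKO libraries, and Kcnj13 was lower. In sham 3 genes were separated (7.86% of all genes), among them Kcnd2 higher and Kcnq1ot1 lower. At day 1 the number was 7 (18.6% of all genes, with only 2 REST cKO libraries), and at day 3 it was 5 (7.59% of all genes), Kcnd1, Kcnip4 and Kcnmb4os2 higher and Kcnip3 and Kcnq5 lower.

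The electrically silent subunits (Kcnf1, Kcns1 and Kcnv1) do not form channels alone and instead join the delayed rectifier subunits of the Kcnb group and alter them. Kcnf1 stood out among all 45 genes. In WT sham its 4 values were -3.55, -3.20, -3.15 and -0.57, and in REST cKO sham they were -1.23, 0.64 and 1.53. After injury WT had -2.19, 0.44 and 0.78 at day 1, -1.43, -0.19 and 0.66 at day 3, and -3.09, -3.02 and 0.36 at day 7. REST cKO had -0.90 and 0.13 at day 1, -0.80, -0.63, -0.02 and 1.95 at day 3, and 1.05, 1.94 and 2.75 at day 7. Thus 6 of 13 WT libraries and 0 of 12 REST cKO libraries were under -2, and the genotypes overlapped in sham and at days 1 and 3 but not at day 7.

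At day 7 the means of Kcnf1 were -1.92 ± 1.97 (SD, n = 3) in WT and 1.92 ± 0.85 (n = 3) in REST cKO, a difference of 3.96 with a standard error of 1.18 (adjusted p = 0.238, limma). Within batch 1 the difference was 3.31 (1 REST cKO library against 2 of WT) and within batch 2 it was 4.08 (1 against 1). In sham the difference was 3.72 ± 1.27 (SE, adjusted p = 0.562, limma), and over the 4 times 2.01 ± 0.60 (adjusted p = 0.441, limma). The gene lies on chromosome 12 at 17172100-17176888 (GRCm38, minus strand). The 250 bases before its RefSeq start (GRCm38.p6, chr12:17176889-17177138, minus strand) are shown because this gene had the largest difference between genotypes at day 7.

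Kcnf1: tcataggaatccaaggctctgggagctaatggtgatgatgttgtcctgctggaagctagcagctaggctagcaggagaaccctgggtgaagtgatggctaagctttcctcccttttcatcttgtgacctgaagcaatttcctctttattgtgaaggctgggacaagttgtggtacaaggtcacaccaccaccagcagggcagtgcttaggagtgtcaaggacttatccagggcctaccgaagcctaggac

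The run is in lower case throughout because neither arm of the RE1 element, searched as CAGCACC (left arm) and GGACAGC (right arm) on both strands, occurs in it. This says only that these letters are not in this window.

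Kcnv1 was often low, under -2 in 7 of 13 WT and 4 of 12 REST cKO libraries. At day 7 its values were -3.23, -2.89 and -2.14 in WT and -1.13, 0.31 and 2.20 in REST cKO, without overlap, a difference of 3.49 ± 1.32 (SE, adjusted p = 0.353, limma). At day 3 both genotypes were low, with -2.50, -2.50 and -2.41 in WT and -2.88, -2.48, -1.65 and 0.25 in REST cKO. In WT sham they had scattered from -3.35 to 1.80, and WT injured minus WT sham was -1.51 ± 1.00 (SE, adjusted p = 0.911, limma), but -2.33 without WT sham replicate 3 and -0.62 without WT sham replicate 10. Kcns1 differed less, by 0.95 ± 1.04 at day 7 (adjusted p = 0.832, limma), and its largest values were 1.90 in REST cKO at day 1 and 1.26 in REST cKO at day 3. All 3 silent subunits had positive differences at day 7, in the model and after quantile normalization.

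**Figure D4:**
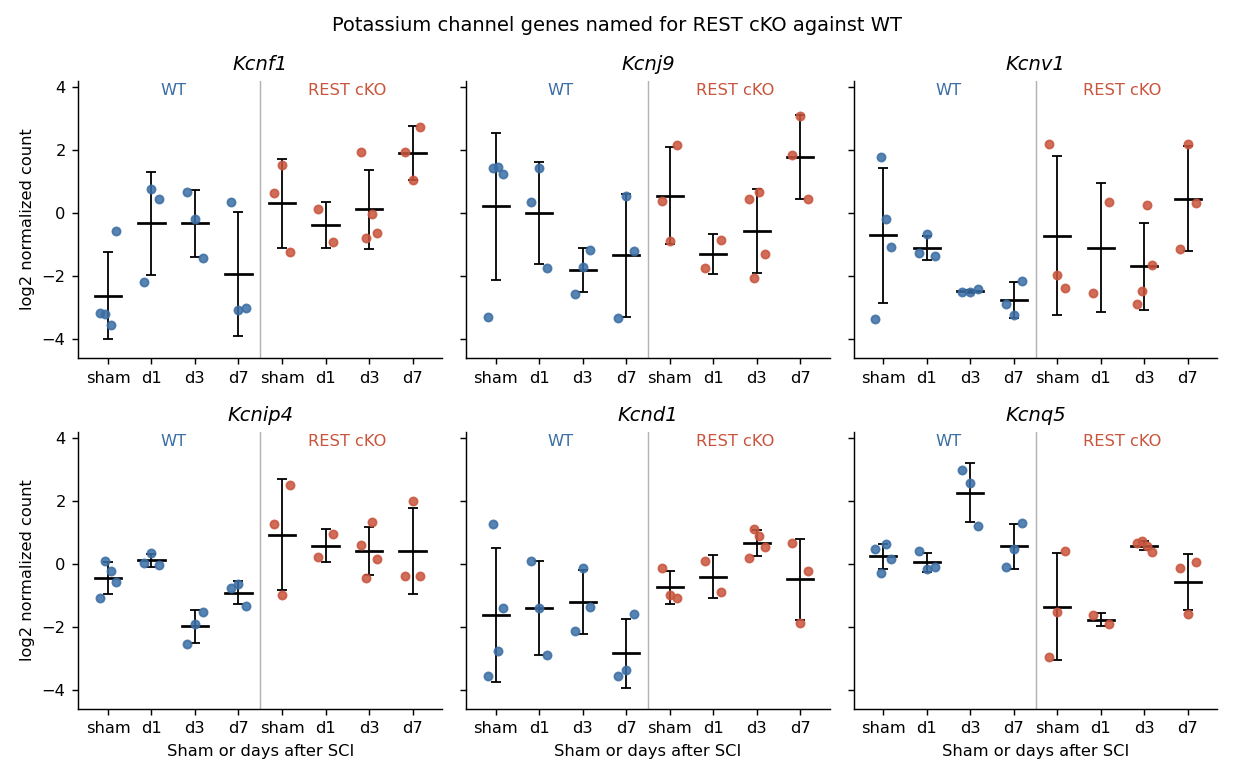
Log2 normalized counts by group for 6 genes with small p between genotypes (Kcnf1, Kcnj9 and Kcnv1 at day 7, Kcnip4, Kcnd1 and Kcnq5 over 4 times), blue for WT and red for REST cKO, 1 point per library, with the mean (bar) and SD (whisker). Kcnf1 lies between 1.05 and 2.75 in REST cKO at day 7, above the 3 WT libraries, and Kcnq5 is highest in WT at day 3.

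The Kcnq genes code for the subunits of the M-current, a slow current that dampens repetitive firing. Kcnq3 was never under -2. Its values at day 7 were -0.24, 1.30 and 2.28 in WT and 1.59, 1.74 and 2.22 in REST cKO, a difference of 0.83 ± 0.81 (SE, adjusted p = 0.799, limma).

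Kcnq5 had a lower mean in REST cKO at each of the 4 times. In WT its values were -0.28, 0.16, 0.47 and 0.62 in sham, -0.17, -0.10 and 0.41 at day 1, 1.21, 2.58 and 2.99 at day 3, and -0.11, 0.47 and 1.31 at day 7. In REST cKO they were -2.97, -1.53 and 0.41 in sham, -1.91 and -1.62 at day 1, 0.38, 0.58, 0.66 and 0.72 at day 3, and -1.58, -0.14 and 0.05 at day 7. The genotypes were separated at day 1 and day 3, with WT above. The difference over the 4 times was -1.64 ± 0.46 (SE, adjusted p = 0.404, limma), the smallest p of any channel gene in that comparison, and it ranged from -1.81 to -1.26 when each library was left out in turn. Both genotypes had their highest mean at day 3, 2.26 ± 0.93 (SD, n = 3) in WT and 0.58 ± 0.15 (n = 4) in REST cKO. REST cKO at day 3 minus sham was 2.21 ± 0.92 (SE, adjusted p = 0.996, limma).

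The bases before both RefSeq starts of Kcnq5 on chromosome 1 (GRCm38.p6, minus strand) are shown because this gene was lower in REST cKO and its windows each held 1 of the RE1 arms. Capitals mark the arm. In the upstream window, chr1:21962651-21962900, the left arm begins 113 bases before the start, and in the downstream window, chr1:21961943-21962192, the right arm begins 111 bases before it.

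Kcnq5 upstream start: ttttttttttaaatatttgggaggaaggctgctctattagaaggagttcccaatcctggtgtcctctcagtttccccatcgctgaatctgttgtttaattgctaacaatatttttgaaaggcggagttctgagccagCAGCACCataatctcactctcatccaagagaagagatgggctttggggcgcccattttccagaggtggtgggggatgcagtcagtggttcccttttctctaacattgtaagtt

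Kcnq5 downstream start: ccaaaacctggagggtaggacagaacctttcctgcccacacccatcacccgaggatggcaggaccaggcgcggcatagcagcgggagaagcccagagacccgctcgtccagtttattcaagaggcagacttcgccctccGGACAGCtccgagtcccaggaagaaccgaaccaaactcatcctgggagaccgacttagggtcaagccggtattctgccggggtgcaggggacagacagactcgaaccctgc

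Such short matches were common. Over windows of 300 bases (250 before to 50 after the start), CAGCACC was found for 8.14% of 27025 genes and for 4 of the 32 channel genes with a window (Kcnc2, Kcnj2, Kcnmb4os2 and Kcnq5). GGACAGC was found for 7.59% of all genes and for 5 of 32 (Kcnip3, Kcnj16, Kcnj4, Kcnk1 and Kcnq5). Both arms within 1 window, at any spacing, were found for 0.681% of genes and for 0 of 32. The windows of 13 channel genes were not analysed here. A match is a description of the sequence and says nothing about binding.

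The voltage-gated pore-forming genes were 11 in number, of the Kcna, Kcnb, Kcnc and Kcnd groups, which carry the delayed rectifier and the transient A-type currents. In sham all 11 had higher means in REST cKO, with a median difference of 0.96 against 0.04 for all genes. Of the 11, 0 had an unadjusted p under 0.05, where 6.91% of all genes did. All 11 were also positive after quantile normalization. At the other times this was not so, with 7 of 11 positive at day 1 (median 0.10), 5 at day 3 (median -0.10) and 6 at day 7 (median 0.70). After quantile normalization 3 were positive at day 1 (median -0.23), 5 at day 3 (median -0.27) and 6 at day 7 (median 0.11). Large differences in sham were 2.03 for Kcna6, 1.70 for Kcnc2 and 1.65 for Kcnd2. Within batch 1 (1 REST cKO library against 2 of WT) all 11 were positive, with a median of 2.04, and within batch 2 (1 against 2) 8 of 11 were, with a median of 0.24. Kcna6 differed by 2.26 and 0.24 in these batches, Kcnc2 by 3.44 and 0.17 and Kcnd2 by 2.53 and 1.07. In the same comparison all 9 neuronal markers were positive with a median of 1.11, and the mean of that list was 1.77 to 2.53 in the REST cKO sham libraries and 0.25 to 1.65 in the WT sham libraries. All 5 astrocyte markers were positive too, with a median of 0.93, and 0 of the 7 microglial markers were, with a median of -0.28. The part of these markers in the result was not tested.

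Kcnd1, Kcnd2 and Kcnd3 form the A-type channels. Kcnd1 was under -2 in 6 of 13 WT libraries and in 0 of 12 REST cKO libraries. Its values were -3.56, -3.36 and -1.57 in WT and -1.88, -0.23 and 0.66 in REST cKO at day 7, and -2.12, -1.38 and -0.11 against 0.18, 0.53, 0.89 and 1.11 at day 3, where the genotypes did not overlap. Over the 4 times the difference was 1.55 ± 0.60 (SE, adjusted p = 0.525, limma). Kcnd2 rested on different libraries at each time, with 0.34, 1.85 and 3.07 in WT at day 1 and -3.24, 1.68 and 2.37 in WT at day 3. Its interaction of genotype and injury was -2.45 ± 1.43 (adjusted p = 0.912, limma), and -1.41 without REST cKO sham replicate 6.

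The Kcna genes code for channels of axons and nerve terminals. Kcna6 was higher in REST cKO by 2.37 ± 1.13 (SE) at day 7 (adjusted p = 0.491, limma), with -3.07, -2.81 and -1.14 in WT and -1.17, -0.66 and 1.25 in REST cKO. The groups overlapped by their nearest libraries, at -1.14 and -1.17, and the difference was 4.19 within batch 1 and -0.03 within batch 2. After quantile normalization it was 1.12. Kcna2, never under -2, was 0.90, 2.17 and 2.29 in REST cKO at day 7 and -0.42, 0.44 and 0.99 in WT, a difference of 1.61 ± 0.85 (adjusted p = 0.535, limma). Kcna1 went the other way at day 7 by -0.83 ± 0.98 (adjusted p = 0.845, limma), with -3.16, -1.54 and 0.34 in REST cKO. Kcnc1 and Kcnc2 code for the fast channels of rapidly firing neurons, and at day 7 Kcnc1 differed by -0.95 ± 1.23 (adjusted p = 0.863, limma) and Kcnc2 by 2.30 ± 1.11 (adjusted p = 0.5005, limma).

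The auxiliary subunits were 5 in number. Kcnip1, Kcnip3 and Kcnip4 code for calcium-binding proteins that bind the A-type channels, Kcnab3 for a subunit of the Kcna channels and Kcnmb4 for the neuronal subunit of the large calcium-activated channel. All 5 had positive differences at day 7 and over the 4 times, and 4 and 3 of them after quantile normalization. In sham 4 of 5 were positive (median 1.16), at day 1 4 of 5 (median 0.10, but 0 of 5 and -0.55 after quantile normalization) and at day 3 2 of 5 (median -0.83). Kcnip4 was the clearest, with -2.54, -1.90 and -1.51 in WT at day 3 and -0.44, 0.15, 0.60 and 1.34 in REST cKO at day 3. The groups did not overlap there or at day 7, where WT had -1.33, -0.77 and -0.64 and REST cKO had -0.37, -0.37 and 1.99. The difference was 2.56 ± 0.97 at day 3 (SE, adjusted p = 0.680, limma) and 1.33 ± 0.50 over the 4 times (adjusted p = 0.517, limma). Kcnip1 was under -2 in 4 of 13 WT and 4 of 12 REST cKO libraries.

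Among the channels opened by calcium or sodium, Kcnma1, the large-conductance calcium-activated channel that shortens action potentials, was never under -2. It had 0.01, 1.22 and 1.45 in WT and 0.95, 2.70 and 3.28 in REST cKO at day 7, a difference of 1.68 ± 0.81 (SE, adjusted p = 0.5005, limma). The difference was 2.09 within batch 1 and 1.83 within batch 2, but 1.09 with a term for sex. Over the 4 times it was 0.12 ± 0.42 (adjusted p = 0.973, limma). Kcnt1, a sodium-activated channel, scattered from -3.36 to 1.99, and Kcnn4, a calcium-activated channel also known from microglia and other immune cells, differed by -1.59 ± 1.06 at day 7 (adjusted p = 0.657, limma), but by -0.94 without WT day 7 replicate 4 and -2.52 without WT day 7 replicate 12.

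The inward rectifiers hold the resting potential and, as Kcnj3 and Kcnj9, answer G proteins. Kcnj3 was 1 of the genes higher in REST cKO over the 4 times, by 1.37 ± 0.55 (SE, adjusted p = 0.525, limma). At day 7 it had -3.40, -1.46 and -1.29 in WT and -1.66, 0.59 and 1.18 in REST cKO, which overlapped, and the difference was 3.02 within batch 1 and -0.37 within batch 2. Kcnj9 at day 7 had -3.34, -1.20 and 0.54 in WT and 0.44, 1.85 and 3.08 in REST cKO, which overlapped between 0.44 and 0.54. The difference was 3.45 ± 1.31 (adjusted p = 0.356, limma), with 3.25 within batch 1 and 4.28 within batch 2. Kcnj11, the pore of the ATP-sensitive channel, was higher over the 4 times by 1.51 ± 0.67 (adjusted p = 0.554, limma).

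Kcnj10 and Kcnj16 code for partners in the channel by which astrocytes take up potassium. Kcnj10 had its highest values in REST cKO at day 1, 2.33 and 2.99, against -2.26, -0.48 and 1.97 in WT at day 1 and -3.34, -0.000105 and 0.31 in REST cKO sham. REST cKO injured minus sham was 2.13 ± 1.07 (SE, adjusted p = 0.890, limma), but 0.17 without REST cKO sham replicate 6, the library at -3.34. Kcnj16 went the other way, with 0.33, 1.73 and 2.03 in REST cKO sham and -2.76 and -1.49 at day 1, a difference over the 3 days of -2.24 ± 1.04 (adjusted p = 0.870, limma). The astrocyte list had a mean of 2.41 to 2.56 in REST cKO at day 1 and 1.51 to 2.35 in REST cKO sham, and its part in the values of these genes was not tested. Kcnj13, known from epithelia such as the choroid plexus, was -0.03, 0.25 and 0.37 in WT and -2.69, -2.59 and -0.57 in REST cKO at day 7, a difference of -2.28 ± 1.20 (adjusted p = 0.535, limma).

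Of the leak channels (Kcnk genes, which pass current at rest), 0 of 5 had an unadjusted p under 0.05 between genotypes at day 7 or over the 4 times. The shares of all genes were 9.95% and 8.53%. Kcnk6 and Kcnk13, the latter known as a channel of microglia, were never under -2, and Kcnk6 was 1.31, 1.72 and 0.39 in WT and 1.85, 2.07 and 2.40 in REST cKO at day 7 (difference 1.05 ± 0.57 SE, adjusted p = 0.565, limma). Kcnk2, a mechanically gated member, had 2 WT and 2 REST cKO libraries under -2 at day 7, and its difference was -0.32 ± 1.36 (adjusted p = 0.970, limma). Kcnk1 differed by 0.11 ± 1.43 (adjusted p = 0.990, limma). Of the ether-a-go-go type, Kcnh1 varied little, from -0.80 to 1.18, and differed by -0.64 ± 0.74 at day 7 (adjusted p = 0.839, limma), and Kcnh7 differed by -1.31 ± 1.17 (adjusted p = 0.769, limma).

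The non-coding members are Kcnq1ot1, an imprinted antisense RNA of the Kcnq1 locus, and the antisense RNAs of Kcnmb4. Kcnq1ot1 was the steadiest of the 45 genes, between 2.06 and 2.75 in every library. Kcnmb4os2 had its highest group mean in WT sham, with -0.87, -0.21, 1.24 and 1.25, and all 3 WT libraries of day 3 were low, with -3.22, -2.78 and -2.31. WT at day 3 minus sham was -4.44 ± 1.28 (SE, adjusted p = 0.537, limma). That is the difference in the model with the sequencing components, and the plain means of these 2 groups lay 3.12 apart. In REST cKO sham it was -2.89, -2.76 and 1.12. On chromosome 10 (GRCm38) Kcnmb4 lies on the minus strand at 116417861-116473878, and the plus strand genes Kcnmb4os1 (116418052-116421237) and Kcnmb4os2 (116473163-116475319) overlap it. Whether strand was used in the counting is not given in the sources used here, so reads of these 3 genes may not be told apart.

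The comparison of injured with sham libraries asked how the channel genes respond to the crush within each genotype. In WT 0 of 45 passed the adjusted threshold (limma) at any day or as the mean of 3 days, where the share of all genes was 0.0101% at day 3 and 0% at day 1, day 7 and in the mean. Unadjusted, 4 were called at day 1 (6.43% of all genes), 4 at day 3 (6.90%), 1 at day 7 (6.89%) and 3 in the mean of 3 days (6.04%). The 4 of day 1 were all higher after injury (Kcna1, Kcnd2, Kcnf1 and Kcnma1), and made up 8.89% of the channel genes. The median difference at day 1 was 0.65 for the channel genes and 0.12 for all genes (0.34 and -0.02 after quantile normalization, 0.39 and 0.09 among genes with a mean of at least 0). In the same comparison all 11 voltage-gated pore-forming genes were positive (9 of 11 after quantile normalization). Of the neuronal markers 8 of 9, of the astrocyte markers 5 of 5 and of the oligodendrocyte markers 6 of 6 were positive as well, with medians of 0.86, 1.06 and 2.05, and their part was not tested. At day 7 the median of the channel genes was -0.00385 and that of all genes -0.12. These WT comparisons and the genotype comparison in sham share the 4 WT sham libraries.

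The WT groups did not overlap for 3 channel genes at day 1 (7.02% of all genes), 6 at day 3 (6.54%) and 3 at day 7 (6.87%). Kcnc2, which was lower in WT sham (-3.00, -2.13, -1.08 and -0.93), was separated at day 1 (-0.34, -0.23 and 1.08) and day 3 (0.26, 0.26 and 1.12) but not at day 7 (-3.17, -1.60 and -0.63). Its difference over the 3 days was 1.75 ± 0.84 (SE, adjusted p = 0.818, limma), and that of Kcnf1 was 2.17 ± 0.89 (adjusted p = 0.773, limma). Kcnq3 was higher after injury by 0.98 ± 0.61 (adjusted p = 0.894, limma), and by 0.62 without WT sham replicate 10. Kcnmb4 at day 7 was lower than in sham by a difference of -2.31 ± 1.04 (adjusted p = 0.663, limma), with -3.15, -1.70 and -0.54.

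In REST cKO 0 of 45 passed the adjusted threshold after injury (limma), where the share of all genes was 0% at day 1 and day 7, 0.0201% at day 3 and 0.0101% in the mean of 3 days. Unadjusted, 3 were called at day 1 (5.29% of all genes), 3 at day 3 (4.65%), 2 at day 7 (5.67%) and 2 in the mean (5.55%). Omitting single libraries gave counts of 1 to 5, 3 to 5, 0 to 3 and 1 to 4. The median differences were 0.30 at day 1 (all genes 0.29), -0.33 at day 3 (0.03), -0.26 at day 7 (0.07) and -0.04 in the mean (0.10). These signs were not stable. After quantile normalization the median was -0.27 at day 1, with a term for sex it was -0.00214 at day 3 and 0.07 in the mean, and among genes with a mean of at least 0 it was 0.12 at day 3 and 0.15 in the mean. Of the 9 neuronal markers 0 were positive at day 1 (median -0.59) and at day 3 (median -0.73) and 2 at day 7 (median -0.39). Other lists mostly went the other way at days 1, 3 and 7. The medians were 0.86, -0.07 and 0.05 for astrocyte markers and 1.29, 0.28 and 0.89 for oligodendrocyte markers. For microglial markers they were 0.04, 0.41 and 0.07. The part of these lists was not tested. At day 7, 16 of 45 channel genes (35.6%) were positive, against 53.5% of all genes. Kcnip3, which codes for an A-type channel partner that also binds DNA, was 1.12, 1.17 and 1.46 in REST cKO sham and -3.04, -0.98, -0.35 and -0.18 at day 3, a difference of -2.95 ± 1.19 (SE, adjusted p = 0.947, limma).

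**Figure D5:**
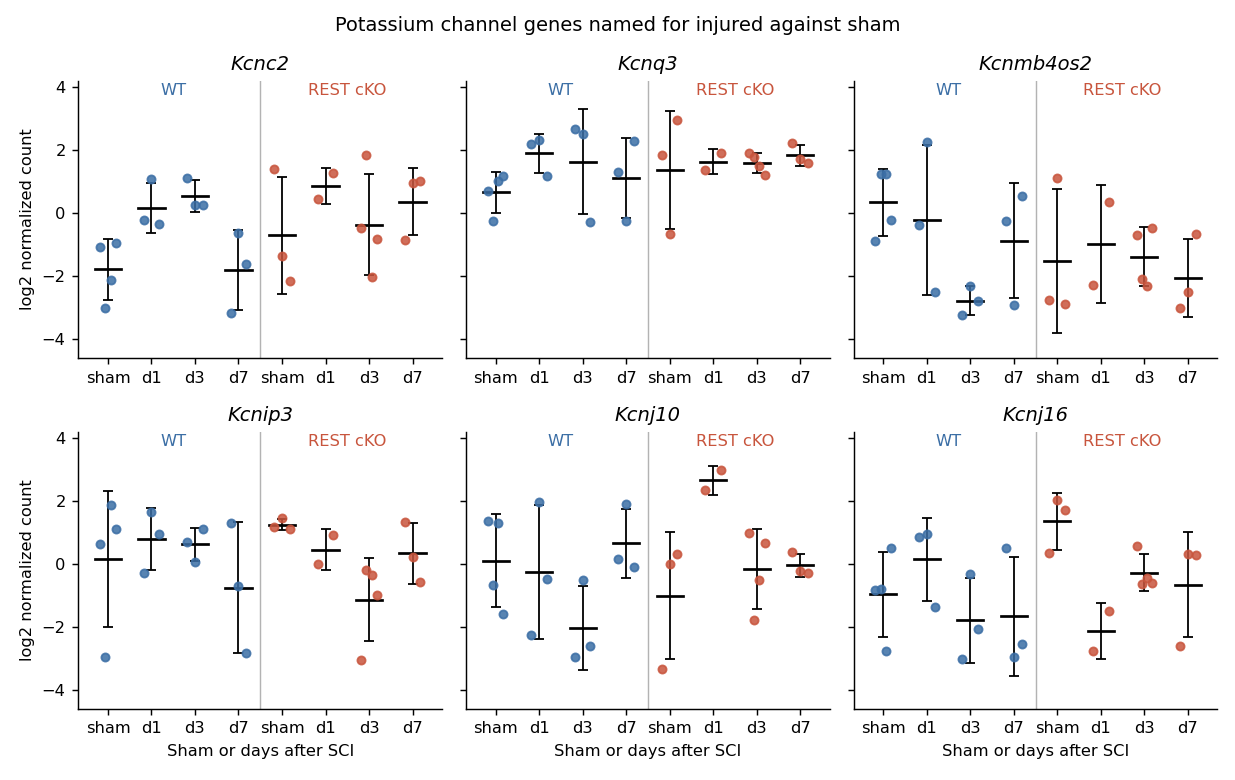
Log2 normalized counts by group for 6 of the genes named for injured against sham libraries (Kcnc2, Kcnq3 and Kcnmb4os2 in WT, Kcnip3, Kcnj10 and Kcnj16 in REST cKO), blue for WT and red for REST cKO, 1 point per library, with the mean (bar) and SD (whisker). Kcnip3 lies at 1.12 to 1.46 in REST cKO sham, above the 4 REST cKO libraries of day 3.

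The interaction asked whether the response to injury differed between the genotypes. In the mean of 3 days 0 of 45 passed the adjusted threshold (limma, 0% of all genes), and unadjusted 1 did (5.45% of all genes). At day 7, 0 of 45 passed (0.0201% of all genes) and unadjusted 1 did (6.35% of all genes). Over the alternative fits these unadjusted counts ran from 0 to 4 in the mean and from 0 to 3 at day 7. These single genes were Kcnmb4os2 in the mean, with 3.09 ± 1.48 (SE, adjusted p = 0.899, limma, and 1.67 without the sequencing components), and Kcnk6 at day 7, with 1.81 ± 0.86 (adjusted p = 0.783, limma). The interaction of Kcnf1 in the mean was -2.29 ± 1.42 (adjusted p = 0.924, limma), and -1.52 without the sequencing components.

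Of 39 other genes of potassium handling, taken as a list (pumps, chloride-coupled carriers, channel scaffolds and anchors), 29 were in the table, and 0 of 29 passed the adjusted threshold in any of the 15 comparisons (limma). Unadjusted, 3 were higher in REST cKO at day 7 (Dpp10, Cntnap2 and Atp1b1) and 0 lower, and 3 were higher over the 4 times (Atp1b2 among them) and 0 lower. These are 10.3% of the list, against 7.73% and 6.60% of all genes higher in REST cKO. The medians were 0.61 and 0.25, and for all genes 0.23 and 0.14. In WT at day 1 after injury 6 were higher (among them Cntnap2, Ank2, Atp1b1, Atp1b2 and Slc12a5) and 0 lower (20.7%, where 6.43% of all genes differed in either direction). The median of the list was 0.73 and that of all genes 0.12. The medians of the neuronal, astrocyte and oligodendrocyte markers were positive in that comparison too, and their part was not tested.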

How the data were processed

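Libraries were made by the authors with a 3′ mRNA-seq kit from neurons sorted by flow cytometry. The authors aligned reads to mm10/GRCm38 with STAR, quantified transcripts with Salmon, summed them per gene, scaled libraries with DESeq2, removed batch effects with RUV, dropped genes without counts in most samples and regressed out 2 sequencing components. The deposited log2 values (9955 rows, of which 24 had no symbol and were left out) were used. The authors' own log2 fold changes and p-values in the same table were not used.

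Linear models were fitted to 9931 genes in R 4.3.3, limma 3.58.1 (8 group means, the 2 components, empirical Bayes with trend), with Benjamini-Hochberg adjustment over all genes and a threshold of 0.1. Since the values are deposited on a log scale, voom weights could not be formed. The script was tested on simulated data. Positions came from GENCODE vM21 and promoter windows from RefSeq, which held 32 of 45 genes. Tables and figures were made with Python 3.11.15.

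Genes were named in the text if they had 1 of the 3 smallest p in either direction in 5 comparisons, or stood on a list of 19 genes by role, of which 16 were in the table (Kcnn2, Kcnj6 and Kcnab2 were not analysed here). Other genes were named after their values were seen. The members, lists and tests were chosen with earlier results of these data known. Alternatives were no components, terms for batch, sex or share of low values, library weights, no trend, quantile normalization, genes with a mean of at least 0, and leaving out each library in turn. A fit without 2 libraries rich in low values was added after seeing the data. Results for some genes are not reported here.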

Additional observations from a re-analysis of the deposited data

Results flagged for a closer look

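In the 2 groups of 4 libraries, 6 of 64 tests of the 32 named genes had a value whose gap to the nearest library was, relative to the group's whole range, above the 95% critical value of Dixon's test, where chance flags about 1 in 20. This is 9.38% of these tests, against 6.17% of the 19862 tests over all genes in the same groups. In WT sham these were Kcnf1 in replicate 17, at -0.57 where the others lay between -3.55 and -3.15, and Kcnj9 in replicate 3, at -3.28 where the others lay between 1.24 and 1.48. In REST cKO at day 3, replicate 9 had Kcnd2 at 1.25 (others -0.61 to -0.56), Kcnj16 at 0.58 (others -0.63 to -0.44) and Kcnh7 at -3.12 (others -0.65 to -0.32). Replicate 20 had Kcnc1 at 2.08 (others -1.17 to -0.69).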

How the results depend on the processing

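The count of channel genes past the adjusted threshold was 0 in all 15 comparisons and stayed 0 in each of the 34 alternative fits, of which the fit without the 2 libraries with over 15% of values under -2 was chosen after seeing the data. Of the 30 named pairs of gene and comparison, 0 changed sign. The adjusted p of Kcnf1 at day 7 lay between 0.123 and 0.545 and its difference between 3.15 and 4.89. The unadjusted counts moved more. The 8 at day 7 became 5 with a term for batch, 6 with a term for sex, 5 after quantile normalization, 5 without those 2 libraries and 1 among the 18 genes with a mean of at least 0, and lay between 5 and 12 when each library was left out. They were 5 without WT day 7 replicate 4 or 7, or without REST cKO day 3 replicate 9 or 27. The 8 over the 4 times (8.53% of all genes) became 5 with a term for batch (6.98% of all genes). They became 2 after quantile normalization and 2 among those 18 genes. With each library left out in turn they ran from 4 to 9. They were 4 without REST cKO day 1 replicate 19, and 5 without WT day 1 replicate 1 or REST cKO sham replicate 6. The 4 in WT at day 1 (6.43% of all genes) became 2 with a term for batch (5.70% of all genes). They became 8 with library weights, 2 with a term for sex and 2 among the 18 genes. They fell to 0 without WT sham replicate 3 and to 1 without WT day 1 replicate 8. They were 2 without WT sham replicate 10 or 14, WT day 1 replicate 11 or REST cKO day 3 replicate 27. The 4 in WT at day 3 ranged from 0 to 6, and the 3 in the WT mean from 0 to 4, over all alternatives. The 1 in WT at day 7 ranged from 0 to 3. Apart from the term for batch, these counts are given without the share of all genes in the same fit. They therefore do not show whether the channel genes moved apart from the whole table. For genes with a mean under 0 the filter gave no value. No paired analysis was made because the labels name no mouse that would link libraries of different groups. The replicate numbers only count the libraries. Read totals per library were not in the table, so no counting limit is given for low genes.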
